A study of Homo sapiens with 18 samples.

Results

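Integrins and laminins are the 2 families of proteins through which cells hold on to the matrix around them, and the genes described here are 36 of their subunits. They were listed by name from the 55765 genes of the deposited table, and they comprise 18 integrin alpha chains, 8 integrin beta chains and 10 laminin chains. RNA came from G401, an established malignant rhabdoid tumour cell line, in 18 cultures that form 6 groups of 3 biological replicates. The control line, called WT, was edited at the AAVS1 safe harbour site and kept its RB1 gene, while E1 and F2 are RB1 knockout lines made with CRISPR/Cas9 in which both copies of RB1 were disrupted. Each line was given 10 µM tazemetostat, which inhibits the histone methyltransferase EZH2, or the solvent DMSO, for 11 days. E1 and F2 are 1 clone each, so a difference between a clone and WT cannot be told apart from differences between clones that have nothing to do with RB1. The comparisons ask how the matrix receptors and laminins of these cells differ with the inhibitor and whether that depends on the line.

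An integrin is a pair of an alpha and a beta chain that spans the cell membrane, binds matrix proteins outside and is linked to actin inside. The alpha chain largely sets the ligand, so that collagen, laminin and proteins with an RGD motif such as fibronectin each have their own set of alpha chains. Laminins are trimers of an alpha, a beta and a gamma chain that form the sheet-like core of basement membranes, and their alpha chains carry the main binding sites for integrins. EZH2 places a methyl mark on histone H3 that keeps genes silent, often at starts rich in the dinucleotide CG.

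The stretch just before the transcription start is therefore shown for the genes that the comparisons below turn on. They are ITGA2, ITGB8 and ITGA11, which were silent or nearly so with DMSO, LAMB1, which was low in both clones, and ITGB6, whose response to the inhibitor differed between the lines. RefSeq windows on GRCh38.p14, matched by symbol, were found for 25 of the 36 genes, 32 windows in all. The reads were placed on hg19, another build, so these coordinates serve the sequences only. Each window is the 250 bases before the start, read 5′ to 3′ along the gene, with every CG in capitals, a motif that reads the same on both strands. The windows are chr5:52989102-52989351 (plus strand) for ITGA2, chr7:20330650-20330899 (plus strand) for ITGB8, chr15:68432164-68432413 (minus strand) for ITGA11, chr7:108003162-108003411 (minus strand) for LAMB1 and chr2:160200273-160200522 (minus strand) for ITGB6.
ITGA2: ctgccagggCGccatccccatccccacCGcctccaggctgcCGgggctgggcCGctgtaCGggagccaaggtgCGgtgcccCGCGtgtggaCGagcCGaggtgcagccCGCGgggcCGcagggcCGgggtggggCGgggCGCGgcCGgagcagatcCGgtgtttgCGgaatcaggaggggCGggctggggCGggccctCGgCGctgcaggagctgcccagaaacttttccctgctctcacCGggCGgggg
ITGB8: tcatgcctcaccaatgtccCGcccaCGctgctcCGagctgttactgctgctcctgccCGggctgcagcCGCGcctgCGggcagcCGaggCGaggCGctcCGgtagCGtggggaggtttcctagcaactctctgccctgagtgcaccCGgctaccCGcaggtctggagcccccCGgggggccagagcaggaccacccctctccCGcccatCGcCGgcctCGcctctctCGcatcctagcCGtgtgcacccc
ITGA11: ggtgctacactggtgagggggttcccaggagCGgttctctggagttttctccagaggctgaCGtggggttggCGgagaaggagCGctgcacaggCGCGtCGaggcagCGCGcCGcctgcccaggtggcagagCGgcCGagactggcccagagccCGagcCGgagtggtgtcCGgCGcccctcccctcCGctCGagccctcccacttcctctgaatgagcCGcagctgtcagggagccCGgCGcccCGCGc
LAMB1: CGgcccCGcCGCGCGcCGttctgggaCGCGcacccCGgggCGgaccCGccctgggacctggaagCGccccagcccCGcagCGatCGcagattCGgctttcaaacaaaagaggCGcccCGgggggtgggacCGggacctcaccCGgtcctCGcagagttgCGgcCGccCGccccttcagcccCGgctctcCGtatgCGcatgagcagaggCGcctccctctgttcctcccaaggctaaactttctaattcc
ITGB6: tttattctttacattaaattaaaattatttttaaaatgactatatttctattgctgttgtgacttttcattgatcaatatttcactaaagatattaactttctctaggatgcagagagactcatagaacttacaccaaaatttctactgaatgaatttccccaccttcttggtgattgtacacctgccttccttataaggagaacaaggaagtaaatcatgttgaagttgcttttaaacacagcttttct
CG occurred 26 times before ITGA2, 21 times before ITGB8, 23 times before ITGA11 and 28 times before LAMB1, and 0 times before ITGB6. Over all 35116 windows the median was 11, with quartiles at 3 and 23. As many CG or more as before ITGA2 were held by 19.6% of all windows, and the shares for ITGB8, ITGA11 and LAMB1 were 30.2%, 25.8% and 15.9%. LAMB3, nearly silent with DMSO, held 3 to 10 CG in its 3 windows, and LAMC1, abundant in every group, held 32, so low and high counts of CG were found in genes of either kind.

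The libraries held 25709489 to 39314860 reads. Values are normalized counts, that is reads divided by a size factor per library, and a gene was tested where its mean over the 18 libraries was at least 10. A gene was called where limma's Benjamini-Hochberg adjusted p was under 0.05 over all 16154 tested genes and the log2 change, on log2(normalized count + 1), was at least 1 in size. SMARCB1, the gene whose loss defines rhabdoid tumours, had 0 reads in all 18 libraries. RB1 held 2300 to 2828 normalized counts in the WT libraries and 505 to 1045 in those of the clones, so transcript remained in the clones. Replicates of E1 with DMSO differed more than those of the other groups, with a chi-square of 33.4 to 69.7 per degree of freedom between pairs against 2.48 to 24.1 elsewhere. These are bulk samples, in which a smaller share of cells with a transcript and less of it per cell cannot be told apart.

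Most of the change in these genes with tazemetostat was upward. In WT, 13 of the 30 tested subunits rose and 2 fell, where 21.3% of all tested genes were called, 14.5% higher and 6.77% lower. In E1, 13 rose and 0 fell, against 15.1% of all tested genes called, 11.3% higher and 3.78% lower. In F2, 14 rose and 1 fell, against 17% called, 13.3% higher and 3.71% lower. The tested subunits had median log2 changes of 0.75, 0.47 and 0.78 in the order WT, E1, F2, beside 0.03, 0.02 and 0.02 over all tested genes. Of these 30 genes, 7 had a mean under 10 over the 9 DMSO libraries (ITGA1, ITGA2, ITGA2B, ITGA8, ITGA11, ITGB8 and LAMB3), so they were tested only through their values with the inhibitor and the counts and medians lean upward for that reason. The genes ITGA1, ITGA2, ITGA3, ITGA8, ITGA11, ITGAM, ITGB3, ITGB5, ITGB8, LAMA3, LAMB1 and LAMB3 rose in all 3 lines, 12 in number, of which 6 are among those 7, and 0 fell in all 3. The share of all tested genes that rose in all 3 lines is not given here, so whether 12 of 30 is more than usual cannot be told.

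**Figure D1:**
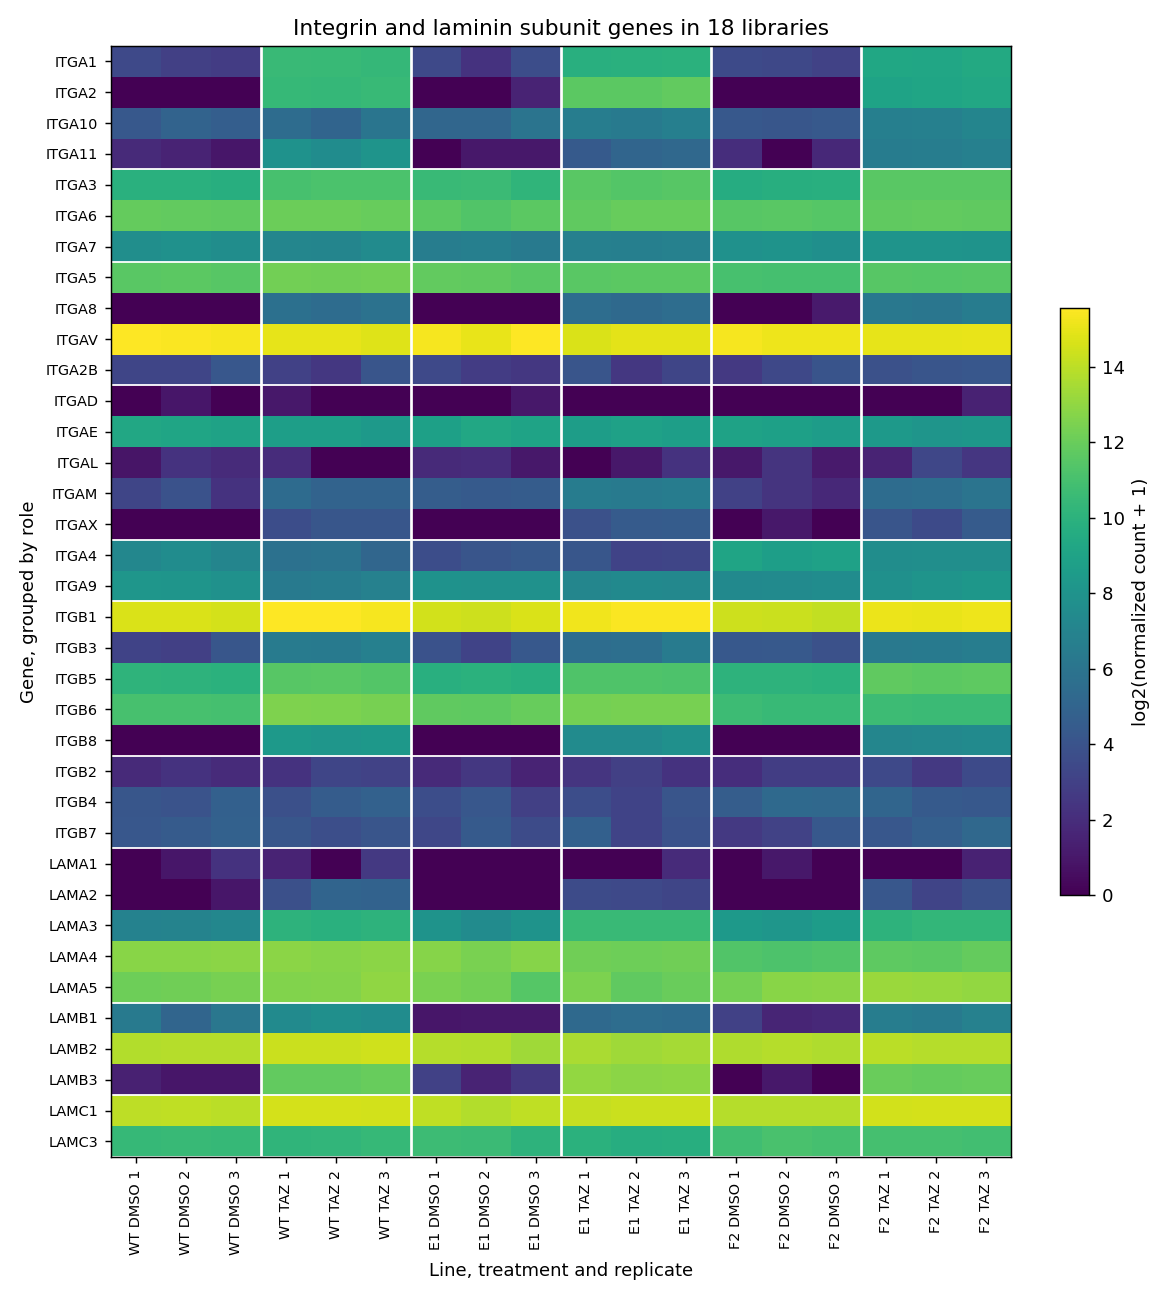
Levels of the 36 subunit genes (vertical axis, grouped by role, white lines between roles) in the 18 libraries (horizontal axis, by line, treatment and replicate), as log2(normalized count + 1) on the colour scale. ITGAV and ITGB1 are bright in every library, while ITGA2, ITGA8, ITGB8 and LAMB3 are dark with DMSO and lit with tazemetostat in all 3 lines.

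Of the alpha chains that bind collagen, ITGA1, ITGA2 and ITGA11 rose in all 3 lines and ITGA10 rose in both clones. ITGA2, the receptor chain for collagen on platelets and epithelia, held 0 normalized counts in all 3 WT libraries with DMSO and 1371, 1295 and 1422 with tazemetostat. In E1 the DMSO libraries held 0, 0 and 1.95 and the tazemetostat libraries 3168, 3234 and 3564. In F2 they held 0 in all 3 with DMSO and 520, 563 and 655 with tazemetostat. Every tazemetostat library thus lay far above every DMSO library, and the treated lines were ordered E1, WT, F2 without overlap. Against a floor of 3 reads per library, the treated libraries were at least 493-fold higher for ITGA2 in WT, and in F2 at least 177-fold higher. In E1, where the DMSO libraries held 2 reads in all, the ratio of summed reads, each sum divided by its group's summed size factors, was 5297 with a 95% counting interval of 1466 to 43750. The same ratio is given below for each tested subunit whose control libraries held reads but none held more than 3.

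ITGA1, which favours the collagen of basement membranes, went from 9.61, 6.60 and 5.68 to 1472, 1426 and 1297 in WT. In E1 it went from 9.82, 3.86 and 11.7 to 895, 944 and 985, and in F2 from 10.2, 9.34 and 7.28 to 609, 585 and 696. Ratios of means were 192 for WT, 111 for E1 and 70.35 for F2, and limma gave log2 changes of 7.42, 6.75 and 5.99, each with an SE of 0.26. The groups did not overlap in any line. ITGA11, the fibrillar collagen receptor of fibroblasts, went from 2.62, 1.89 and 0.95 to 248, 192 and 267 in WT, from 0, 0.97 and 0.97 to 20.2, 32.9 and 36.8 in E1, and from 3.07, 0 and 2.43 to 93.2, 95.9 and 107 in F2. It rose in each line. The ratio of summed reads, scaled as for ITGA2, was 126.6 for WT, with a counting interval of 57.84 to 346.1. For E1 it was 48.24 (12.98 to 404.3) and for F2 54.72 (23.19 to 169.7). The ratio was lowest in E1, but the intervals of the lines overlapped. The treated E1 libraries lay below all treated libraries of the other lines.

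ITGA10, a collagen receptor best known from cartilage, was the most abundant member of this class per kilobase before treatment. In F2 it rose from 18.4, 16.6 and 19.4 to 103, 107 and 133, a log2 change of 2.58 (SE 0.26, adjusted p = 8.36e-08 with limma). In E1 it rose from 33.9, 34.8 and 63.3 to 95.8, 86.1 and 107, a log2 change of 1.17 (adjusted p = 0.00109). In WT the values were 18.3, 30.2 and 23.7 with DMSO and 44.4, 31.8 and 64.0 with tazemetostat, groups that did not overlap. That log2 change of 0.90 was short of the limit, and it passed without WT DMSO replicate 2 (1.07) or without WT tazemetostat replicate 2 (1.14).

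Among the alpha chains that bind laminin, ITGA3 rose and ITGA6 and ITGA7 were not called with the inhibitor. ITGA3, the laminin-332 and laminin-511 receptor chain, went from 957, 926 and 870 to 2094, 2256 and 2330 in WT, from 1530, 1545 and 1177 to 3107, 2697 and 2901 in E1, and from 783, 867 and 888 to 3132, 3019 and 3028 in F2. Its 3 treated groups were all above their controls, with log2 changes of 1.28, 1.04 and 1.86 (SE 0.09 each). The E1 value was near the limit: it was 0.98 with every library scaled to the same total, 0.91 without E1 DMSO replicate 3 and 0.99 without E1 tazemetostat replicate 1. ITGA6, which joins beta 4 in hemidesmosomes, had log2 changes of 0.21, 0.36 and 0.26 in WT, E1 and F2. ITGA7, the muscle laminin receptor, had -0.52, 0.21 and 0.18. Per kilobase of exon, ITGA3 made up 21.9% ± 0.14 (SD, n = 3) of the 3 laminin-binding alpha chains in WT with DMSO and 37.7% ± 1.77 with tazemetostat, and in F2 23.7% ± 1.65 and 48.5% ± 0.94. For E1 it was 35.3% ± 5.44 and 46.6% ± 3.43.

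Of the alpha chains that recognise RGD, only ITGA8 was called with the inhibitor, in all 3 lines. ITGA8, the nephronectin receptor chain needed for kidney development, held 0 in every WT and E1 DMSO library and 0, 0 and 1.21 in F2. With tazemetostat it held 53.2, 44.0 and 56.7 in WT, 46.9, 38.7 and 47.1 in E1, and 72.8, 67.6 and 90.7 in F2. After treatment only WT and E1 overlapped among the lines, and all treated libraries lay above all untreated ones. For WT this was at least 18.6-fold higher and for E1 at least 15.6-fold higher, and in F2, with 1 read in all with DMSO, the ratio of scaled read sums was 214 with a 95% counting interval of 38.0 to 8483. ITGA5, the fibronectin receptor chain, had log2 changes of 0.66, -0.07 and 0.50, and ITGAV, the partner of several beta chains, had -0.54, -0.48 and -0.21. ITGA2B, the platelet fibrinogen receptor chain, lay between 4.68 and 17.98 normalized counts in all 18 libraries.

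ITGA4 and ITGA9, related chains that bind VCAM1, fibronectin and tenascin, were the subunits that fell. ITGA4 held 148.5, 193 and 135 in WT with DMSO and 54.2, 60.8 and 34.5 with tazemetostat, and in F2 it held 539, 419 and 483 against 198, 202 and 207. In both lines the groups were separate, and ITGA4 fell by 1.68 on the log2 scale in WT (SE 0.26, adjusted p = 1.71e-05 with limma) and by 1.24 in F2 (SE 0.26, adjusted p = 0.000566). In E1 it was low throughout, at 11.6, 16.4 and 19.5 with DMSO and 17.0, 7.74 and 8.48 with tazemetostat, groups that overlapped, with a log2 change of -0.53 (SE 0.26, adjusted p = 0.106). ITGA9 held 285, 282 and 238 in WT with DMSO and 85.7, 93.5 and 114.5 with tazemetostat, and it fell by 1.45 (SE 0.13, adjusted p = 1.55e-08). In E1 the values were 248, 230 and 237 against 140, 167 and 154, a log2 change of -0.63 that was short of the limit. In F2 the order was the opposite, with 164, 177 and 188 against 223, 267 and 298, a log2 change of 0.56 also short of the limit.

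The alpha chains known from leukocytes were low or absent, with 2 exceptions. ITGAM, the alpha chain of the complement receptor of myeloid cells, rose in all 3 lines from a few reads: from 8.74, 14.1 and 3.79 to 43.4, 29.9 and 29.6 in WT, from 23.2, 20.3 and 22.4 to 92.6, 85.1 and 91.4 in E1, and from 7.17, 4.15 and 2.43 to 43.7, 47.4 and 62.0 in F2. No treated library overlapped with a control of its line, and the log2 changes were 1.96, 1.98 and 3.29 (SE 0.34 each). ITGAE, which pairs with beta 7 and binds E-cadherin, lay between 283 and 657 in all libraries, with log2 changes of -0.54, -0.30 and -0.54. ITGAX, the alpha chain of another complement receptor, was not tested, as its mean was under 10. It held 0 reads in 8 of the 9 DMSO libraries and 1 read in F2 replicate 2, while the treated libraries of WT held 11.8 to 17.2 normalized counts, those of E1 13.8 to 21.7 and those of F2 10.1 to 21.3. ITGAD and ITGAL, of the same class, and ITGB2, the beta chain shared by ITGAD, ITGAL, ITGAM and ITGAX, also missed the mean of 10. ITGB2 lay between 1.95 and 10.2 normalized counts in the 18 libraries. Of 7 leukocyte markers, 5 were at or under the floor of 3 reads in every group except treated F2, where 4 were, and PTPRC, the common leukocyte antigen, held at most 1.85 normalized counts. Their sum, most of it CORO1A, was 278 to 333 before and 412 to 479 after treatment for WT, 200 to 435 and 241 to 292 for E1, and 206 to 265 and 268 to 299 for F2. The part of these markers in the change of ITGAM and ITGAX was not tested.

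Beta chains that pair with ITGAV differed widely in how they moved. ITGB8, which activates latent TGF-beta, held 0 reads in all 9 DMSO libraries. With tazemetostat it held 336, 283 and 319 in WT, 180, 183 and 221 in E1, and 139, 151 and 176 in F2. It was therefore higher by at least 113-fold for WT, by at least 68.6-fold for E1 and by at least 47.4-fold for F2, with WT above both clones in every library. ITGB5, the vitronectin receptor chain, rose from 1139, 1089 and 999 to 2948, 3047 and 2738 in WT, with log2 changes of 1.44, 1.42 and 1.70 in WT, E1 and F2 (SE 0.07 each). ITGB3, known from platelets and osteoclasts, rose by 3.15, 2.14 and 2.25 (SE 0.33 each), from 6.60 to 19.7 normalized counts in the DMSO libraries to 46.9 to 107 in the treated ones. It shares 51.6% of its annotated exon bases with an overlapping gene, AC068234.1, so its counts are uncertain. The 5 platelet markers examined summed to at most 4.47 normalized counts with DMSO and, after treatment, to 61.1 to 126 (WT), 9.58 to 14.1 (E1) and 25.2 to 27.8 (F2), and their part in the change of ITGB3 and ITGA2 was not tested. ITGB1, which pairs with more alpha chains than any other beta chain, had log2 changes of 0.83, 0.87 and 0.85 (SE 0.09 each), all short of the limit of 1, and its treated libraries lay above their controls in every line.

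ITGB6, an epithelial chain that also activates latent TGF-beta, moved with the inhibitor in WT and was not called in the clones. It held 2060, 2076 and 1999 in WT with DMSO and 5933, 5784 and 5239 with tazemetostat, a rise of 1.46 (SE 0.07, adjusted p = 1.53e-12 with limma). In E1 it held 3462, 3397 and 3968 against 5129, 5369 and 5422, groups that were also separate, with a log2 change of 0.56. In F2 it held 1661, 1455 and 1410 against 1613, 1566 and 1571, groups that overlapped, with a log2 change of 0.07. ITGB6 shares 20.6% of its exon bases with AC092153.1, which makes its level uncertain to that extent. ITGB7, a partner of ITGA4 and ITGAE, was called in F2 alone, from 5.12, 7.26 and 18.2 to 17.5, 25.2 and 37.0, groups that overlapped. That log2 change of 1.42 (adjusted p = 0.0111) was lost without F2 DMSO replicate 1 (adjusted p = 0.0705) or without F2 tazemetostat replicate 3 (adjusted p = 0.061), and ITGB7 shares 51.4% of its exon bases with ZNF740 on the other strand. ITGB4, the hemidesmosome partner of ITGA6, lay between 6.82 and 38.4 in all libraries and was not called with the inhibitor.

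Laminin chains divided into a few that rose steeply and a larger number that were high in every group. LAMB3, the beta chain of laminin-332 of skin and other epithelia, held 1.75, 0.94 and 0.95 in WT with DMSO and 3663, 3670 and 4028 with tazemetostat. In E1 it went from 7.14, 1.93 and 4.87 to 8417, 7406 and 7656, and in F2 from 0, 1.04 and 0 to 4104, 3775 and 3902. The lowest treated library held 3663 and the highest control 7.14, and E1 lay above the other lines after treatment. For E1 the ratio of means was 1684. The WT controls held 4 reads in all and those of F2 1 read, and the ratio of scaled read sums was 3073 for WT (95% counting interval 1200 to 11280) and 10860 for F2 (1949 to 428900). LAMA3, the alpha chain of the same laminin, rose from 120, 124 and 144 to 1072, 962 and 1087 in WT, from 255, 179 and 259 to 1528, 1478 and 1528 in E1, and from 328, 287 and 393 to 1076, 1252 and 1245 in F2. Its log2 changes were 3.00, 2.73 and 1.83 (SE 0.13 each), and its groups were separate in each line.

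KRT5, a keratin of basal epithelium, was also higher with tazemetostat in each line. Among treated lines it was highest in F2, whereas LAMA3 and LAMB3 were highest in E1. KRT5 held 0 reads in every DMSO library, and with tazemetostat it held 770.5 ± 64.3 normalized counts (SD, n = 3) for WT, 508 ± 26.8 for E1 and 2599 ± 214 for F2. The 5 epithelial markers examined summed to 244 to 294 in WT with DMSO and 1082 to 1287 with tazemetostat, to 16.1 to 35.1 and 656 to 671 in E1, and to 132 to 186 and 2691 to 3159 in F2. EPCAM, another epithelial marker, fell by 1.37 in E1 and by 1.14 in F2 from at most 19 reads a library, while CDH1 rose in E1 alone. With DMSO 3 of the 5 markers were at or under the floor in each line, and with tazemetostat 0 were. Their part in the change of LAMA3 and LAMB3 was not tested.

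LAMB1, the beta chain of laminins of embryonic and vascular basement membranes, was low in both clones before treatment and rose in every line with the inhibitor. In WT it held 79.5, 33.0 and 71.0 with DMSO and 175, 213 and 188 with tazemetostat, a rise of 1.73 (SE 0.33, adjusted p = 0.000149 with limma). In E1 it rose from 0.89, 0.97 and 0.97, which is 1 read per library, to 38.3, 46.4 and 42.4, and in F2 from 7.17, 2.08 and 2.43 to 96.1, 83.8 and 114. Treated E1 lay within the range of untreated WT and treated F2 above it, and all treated libraries of both clones lay below treated WT. The log2 changes were 4.48 in E1 and 4.47 in F2. In E1 the ratio of scaled read sums was 45.09, with a counting interval of 15.09 to 221.5. The 4 endothelial markers matched, each at or under the floor with DMSO except VWF in E1, summed to 0.946 to 2.83 normalized counts in untreated WT and 54.2 to 67.7 in treated WT. For E1 the sums were 2.92 to 8.93 and 37.7 to 44.3, and for F2 2.05 to 3.11 and 61.1 to 76.7. VWF rose in each line, by 3.82, 2.14 and 3.50, and the part of these markers in the change of LAMB1 was not tested. LAMA2, the muscle laminin alpha chain, was not tested, and it held 0 reads in 8 of 9 DMSO libraries and 1 in the other. With tazemetostat it held 12.8, 30.9 and 28.3 in WT, 10.7, 9.67 and 8.48 in E1 and 17.5, 8.07 and 13.0 in F2. LAMA1, the embryonic alpha chain, stayed at or below 4.93 normalized counts everywhere.

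LAMA4, LAMA5, LAMB2, LAMC1 and LAMC3 were not called with the inhibitor in any line. LAMB2 and LAMC1, common beta and gamma chains of adult laminins, held 10410 to 21840 and 13960 to 24600 normalized counts. Log2 changes of LAMC1 were 0.56, 0.33 and 0.72, and those of LAMB2 were 0.53, -0.18 and 0.09. LAMA5, an alpha chain of epithelial basement membranes, varied among replicates of several groups. It held 5470, 4992 and 2882 in E1 with DMSO and 5788, 3424 and 4122 in E1 with tazemetostat. In F2 with DMSO it held 5057, 7037 and 7429. In all, 10 tested subunits were called in none of the 11 contrasts: ITGA2B, ITGA5, ITGA6, ITGAE, ITGAV, ITGB1, LAMA5, LAMB2, LAMC1 and LAMC3. The share of all tested genes called in none is not given here, so whether that number is few or many cannot be told.

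**Figure D2:**
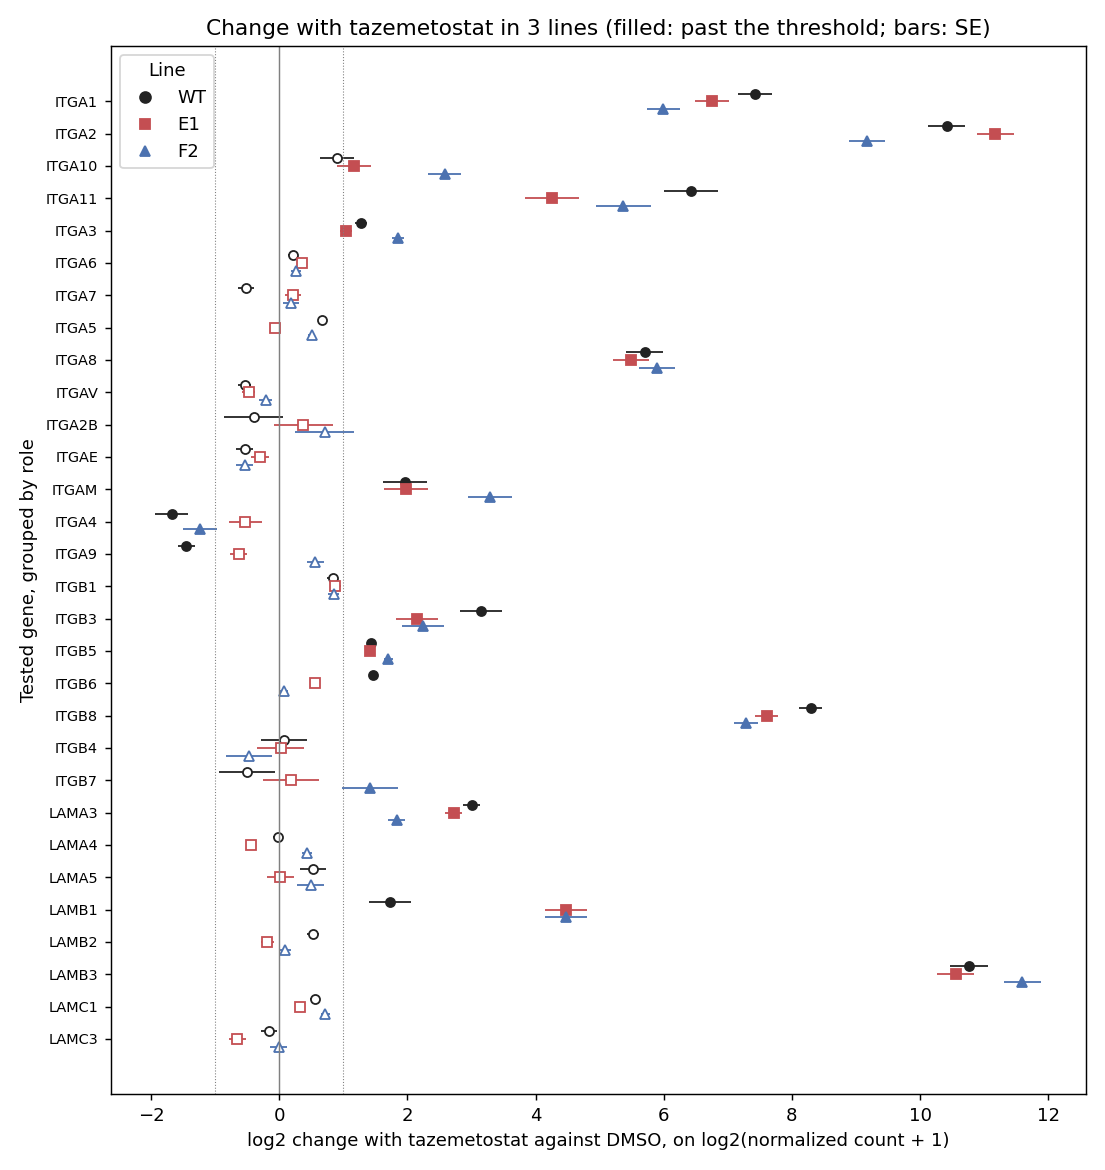
Change with tazemetostat against DMSO in each line (horizontal axis, log2 change on log2(normalized count + 1), bars are the SE from limma) for the 30 tested subunit genes (vertical axis, grouped by role). Filled symbols passed the threshold and dotted lines mark a log2 change of 1 in size; ITGA2 and LAMB3 lie farthest right, and ITGA4 and ITGA9 reach below -1.

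Set per kilobase of exon, the order of the most abundant chains was much the same in all groups. ITGB1 and ITGAV ranked first and second in every group except F2 with DMSO, where ITGAV came first (5343 ± 336 normalized counts per kilobase, SD, n = 3, against 5030 ± 356 for ITGB1). In the DMSO groups of all 3 lines the means of these neighbours differed by no more than their SD between libraries. Within single libraries, ITGB1 was above ITGAV in every WT library with DMSO and below it in every F2 library with DMSO. In E1 with DMSO the order varied between libraries. With tazemetostat ITGB1 stood clear, at 11660 ± 947 against 4317 ± 228 for ITGAV in WT. LAMB2 and LAMC1 followed, in that order with DMSO and in WT with tazemetostat, and in the reverse order in the treated clones. In untreated E1, LAMB2 (2271 ± 395) and LAMC1 (2036 ± 231) were within their spread. In F2 with tazemetostat LAMC1 (3026 ± 42.2) and LAMB2 (2578 ± 126) were separated by more than their spread. Below them LAMB3 climbed from rank 28 to 8 in WT, from 24 to 5 in E1 and from 29 to 5 in F2.

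Within some classes the most abundant chain per kilobase was another one after treatment, and in others it was the same. ITGA10 made up 83.6% ± 7.30 (SD, n = 3) of the collagen-binding alpha chains in WT with DMSO, from a summed level of only 5.42 normalized counts per kilobase. With tazemetostat the sum was 335, and ITGA2 made up 51.7% ± 1.36 and ITGA1 38.8% ± 2.97. In treated E1, ITGA2 alone made up 79.5% ± 0.21, and in treated F2 it made up 45.0% ± 1.18. LAMB2 accounted for 99.6% ± 0.16 of laminin beta transcript in untreated WT, 99.95% ± 0.03 for E1 and 99.97% ± 0.02 for F2, and for 80.6% ± 0.36, 53.1% ± 0.80 and 74.3% ± 0.52 in treated WT, E1 and F2, with nearly all the rest LAMB3, so that it remained the most abundant beta chain in all 6 groups. Among beta chains 3, 5, 6 and 8, ITGB6 made up 62.6% ± 0.73 in treated WT and 29.5% ± 0.59 in treated F2, where ITGB5 made up 67.3% ± 0.84. Among laminin alpha chains LAMA4 made up 68.0% ± 1.71 in WT with DMSO but 35.5% ± 5.28 in F2, where LAMA5 made up 61.2% ± 5.61. With the length of the longest transcript in place of the exon union, a choice made after the data were seen, no share of the 80 moved by more than 4.25 percentage points.

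**Figure D3:**
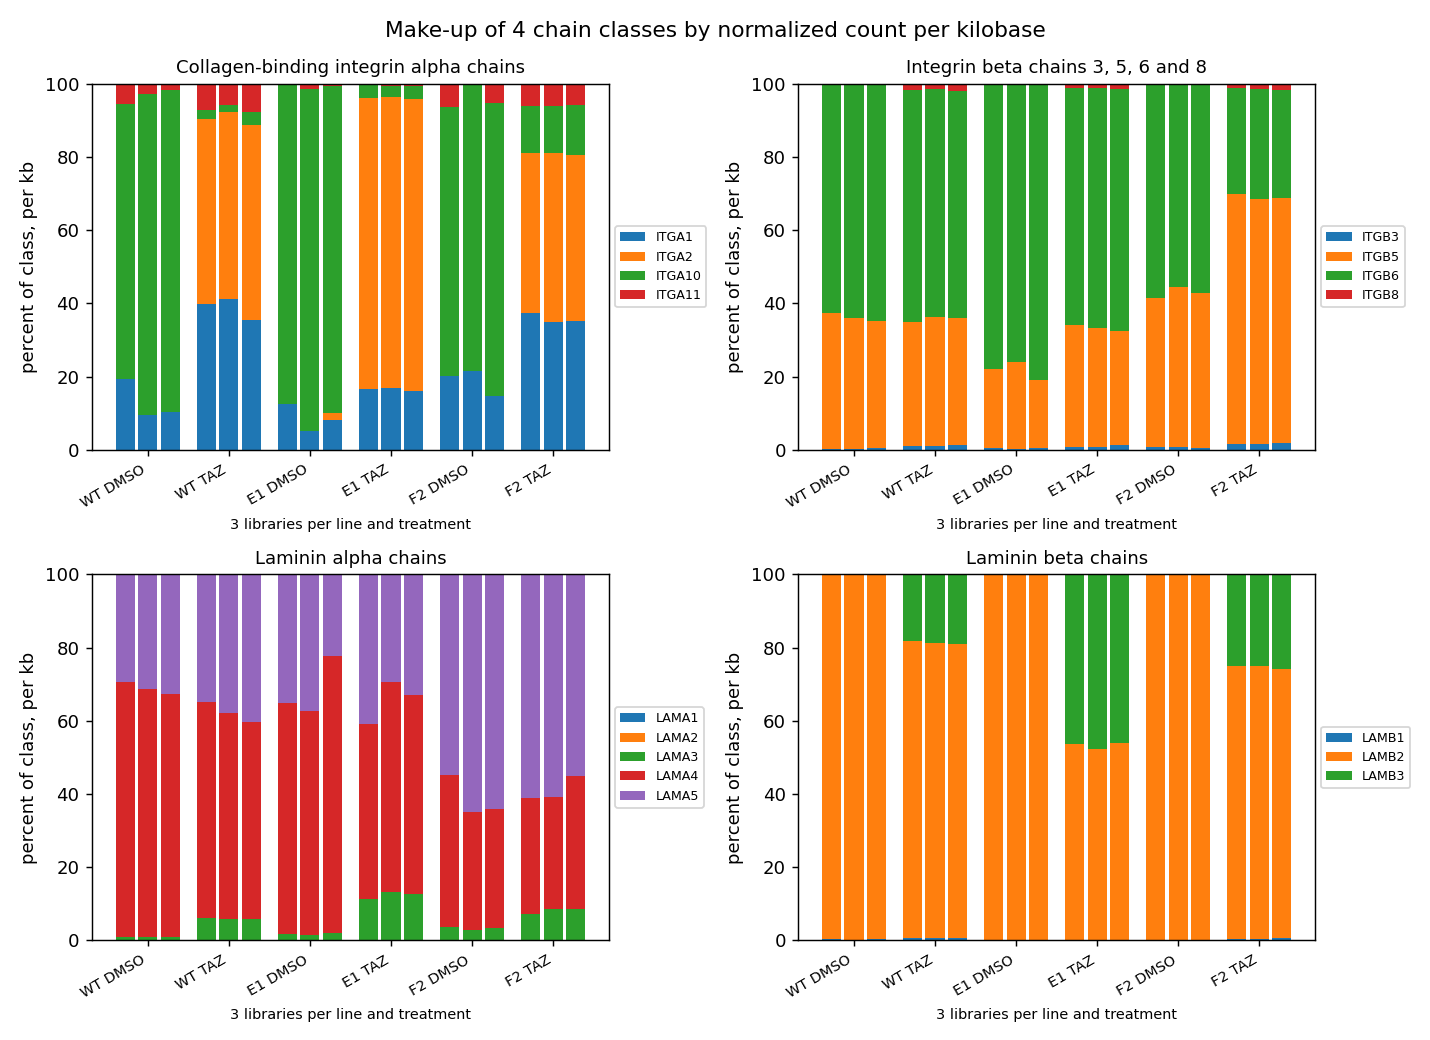
Share of each chain in its class (vertical axis, percent of the class by normalized count per kilobase) in each of the 18 libraries (horizontal axis, 3 bars per line and treatment). Among collagen-binding alpha chains the share of ITGA10 is smaller with tazemetostat, although its level is not, and ITGA1 and ITGA2 make up most of the class. LAMB3 appears beside LAMB2 with tazemetostat, and ITGB5 outweighs ITGB6 in treated F2.

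Between the lines without inhibitor, fewer subunits were called than between treatments. Of the 30 tested subunits, E1 had 2 higher (6.67%) and 3 lower (10%) than WT with DMSO. Over all tested genes 5.04% were called in that comparison (2.35% higher and 2.69% lower). F2 had 2 higher and 2 lower (6.67% each), where 2.98% of all tested genes were called (0.885% higher and 2.09% lower). The comparisons of E1 and F2 with WT share the WT libraries. LAMB1 was lower in both clones, with log2 differences of -4.90 in E1 and -3.72 in F2 (SE 0.33 each), and the libraries of each clone lay below all of WT. ITGA4 lay on opposite sides of WT in the clones, with -3.26 in E1 and 1.60 in F2 (SE 0.26 each). All 3 groups were separate, so that F2 with DMSO held 30.3 times the mean of E1. LAMA4, the alpha chain of vascular and muscle laminins, held 7252, 7058 and 7466 in WT, 6755, 5593 and 6719 in E1, and 2631, 2404 and 2587 in F2. Its log2 difference was -1.51 in F2 (SE 0.08, adjusted p = 6.37e-11 with limma) and -0.20 in E1. LAMA3 was higher in F2 (1.37), ITGA7 was lower in E1 (-1.18), and ITGAM and LAMB3 were higher in E1 (1.37 and 1.25). The last 2 calls rest on few reads: with the E1 and WT DMSO libraries alone in the fit their adjusted p was 0.116 and 0.124. ITGAM also fell short of the limit without WT DMSO replicate 3 (0.92), and LAMB3 without E1 DMSO replicate 1 (0.93), with a pseudocount of 4 (0.69) and with DESeq2 (adjusted p = 0.0667).

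Set against each other with DMSO, E1 and F2 differed in 9 subunits, 5 higher and 4 lower in E1, where 7.56% of all tested genes were called (4.05% higher and 3.52% lower). ITGA4 (-4.86), ITGA7 (-1.30), ITGB4 (-1.46) and LAMB1 (-1.18) were lower in E1, and ITGA10 (1.17), ITGAM (2.13), ITGB6 (1.26), LAMA4 (1.32) and LAMB3 (2.03) were higher. The clones, which carry the same label for RB1, thus differed in more subunits from each other than either did from WT, as counts of calls. All tested genes gave the same order with DMSO. Of these, 7.56% were called between the clones, 5.04% between WT and E1, and 2.98% between WT and F2. That order is therefore not particular to the subunits. LAMB1 lost its call with edgeR (adjusted p = 0.10), with DESeq2 (0.0791), with a pseudocount of 4 (0.071), with only these groups in the fit (0.0946) and without F2 DMSO replicate 1 (0.0557). ITGB4 missed it with only these groups in the fit (0.0509), ITGA10 without E1 DMSO replicate 3 (log2 difference 0.89) and LAMB3 with a pseudocount of 4 (0.95).

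Under tazemetostat, E1 exceeded WT in 4 subunits and lay below it in 3, where 11.3% of all tested genes were called (5.4% higher and 5.95% lower). F2 exceeded WT in 3 and lay below it in 6, where 12.3% were called (7.31% higher and 4.97% lower). In E1 the log2 differences were 1.28 for ITGA2, 1.08 for ITGA10, 1.38 for ITGAM and 1.05 for LAMB3, and -2.96 for ITGA11, -2.11 for ITGA4 and -2.16 for LAMB1. In F2 they were 2.04 for ITGA4, 1.41 for ITGA9 and 1.32 for ITGA10, and -1.15 for ITGA1, -1.24 for ITGA2, -1.24 for ITGA11, -1.83 for ITGB6, -1.01 for ITGB8 and -1.06 for LAMA4. ITGA4 therefore kept its place below WT in E1 and above it in F2 under both treatments. Several of these values sit at the limit. ITGA10 in E1 was 0.83 without WT tazemetostat replicate 2 and LAMB3 was 0.99 without E1 tazemetostat replicate 1. Without a filter beyond 1 read, ITGA11 in F2 had an adjusted p of 0.0511, with a pseudocount of 0.5 of 0.0802, and it lost its call without any 1 of WT tazemetostat replicates 1 and 3 and F2 tazemetostat replicates 1 and 2 (0.0525 to 0.0635). Scaled to the same total, the differences of ITGB8 and LAMA4 in F2 were -0.86 and -0.91. ITGB8 was also between -0.93 and -0.99 without WT tazemetostat replicate 1 or 3 or F2 tazemetostat replicate 1 or 2 and with a pseudocount of 4, and it was -0.996 with edgeR and -0.999 with DESeq2.

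**Figure D4:**
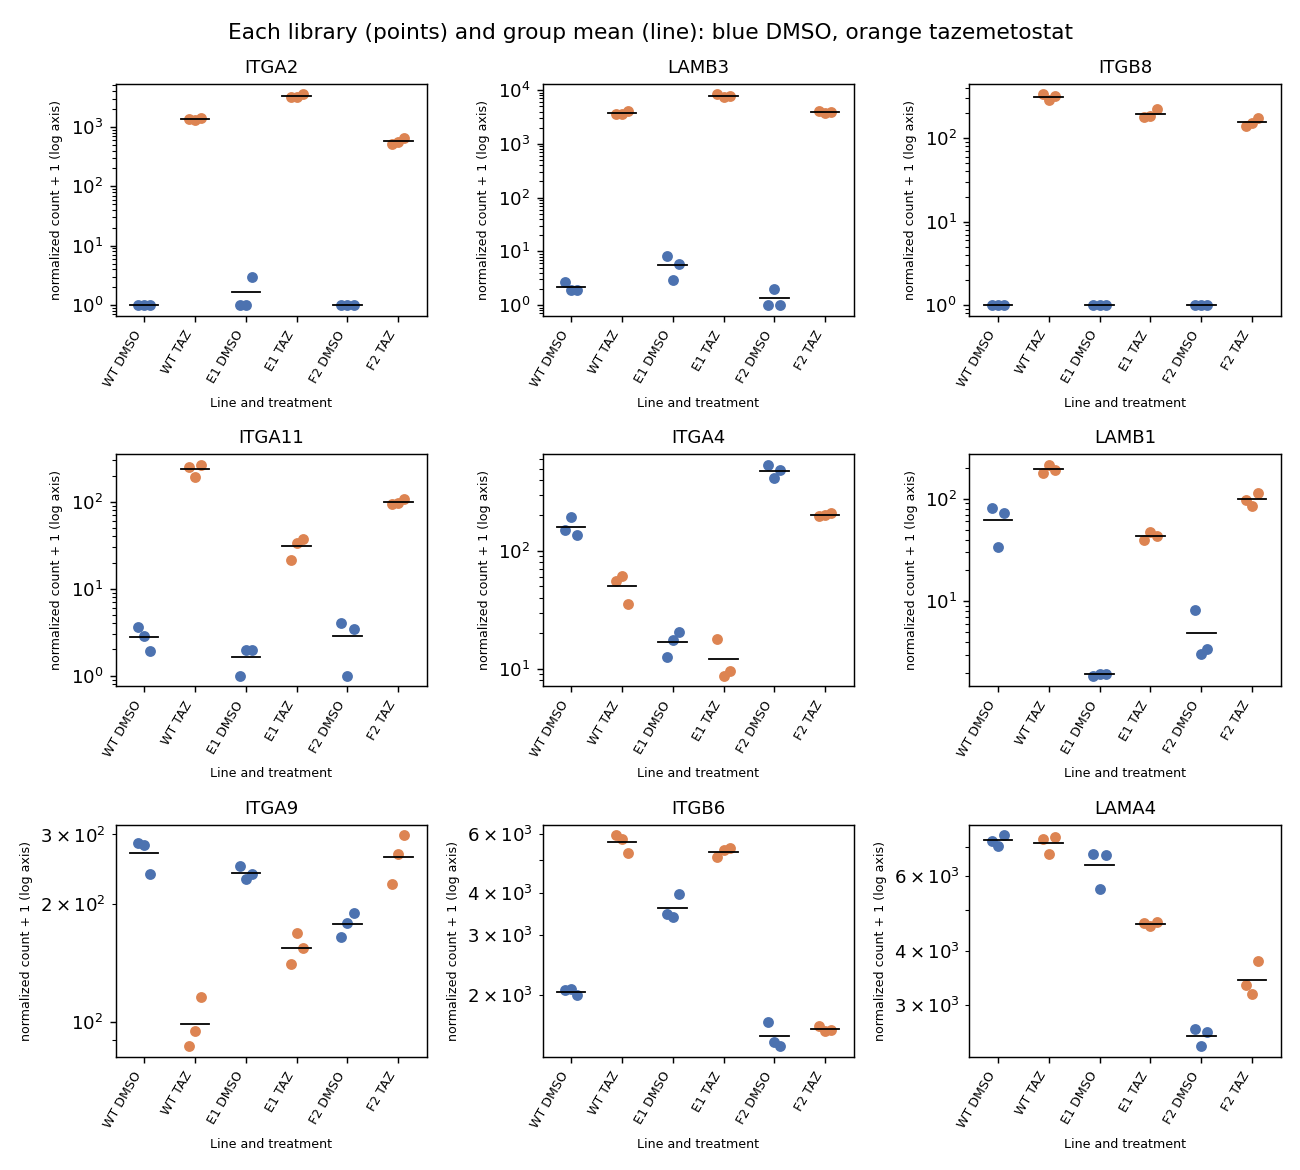
Normalized count + 1 (vertical log axis, scaled per gene) of 9 subunit genes in every library (points) with the group mean (line), by line and treatment (horizontal axis; blue DMSO, orange tazemetostat). ITGA2, LAMB3, ITGB8 and ITGA11 separate by treatment in every line, ITGA4 separates the 3 lines under either treatment, and ITGA9 lies lower with tazemetostat in WT and higher in F2.

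Whether the change with the inhibitor itself differed between lines was tested as a response difference, the log2 change in a line minus that in another. For E1 minus WT, 2 subunits were above and 1 below, where 10% of all tested genes were called (4.79% above and 5.21% below). For F2 minus WT, 4 were above and 5 below, where 7.48% were called (4.82% above and 2.66% below), and for E1 minus F2, 1 was above and 2 below, where 5.81% were called (1.78% above and 4.02% below). The first and second of these share the WT libraries, and the third shares libraries with both. On the log2 scale LAMB1 rose more in both clones than in WT, by 2.75 in E1 and 2.75 in F2 (SE 0.46 each, adjusted p = 0.000155 and 0.000222 with limma), from lower starting levels. Its treated libraries in both clones still lay below those of WT. ITGA9 had a response difference of 2.01 in F2 against WT (SE 0.19, adjusted p = 3.06e-07), with every treated WT library below the WT controls and every treated F2 library above the F2 controls. E1 lay between, at 0.81 against WT, short of the limit, and -1.20 against F2 (adjusted p = 0.000162). ITGB6 responded less in F2 than in WT, by -1.39 (SE 0.10, adjusted p = 1.93e-08), and in E1 the difference was -0.91.

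ITGA10 responded more in F2 than in WT (1.68, SE 0.37) and more in F2 than in E1 (E1 minus F2 -1.42, SE 0.37). ITGA1 and LAMA3 responded less in F2 than in WT, by -1.43 (SE 0.37) and -1.17 (SE 0.19). For ITGA2 and ITGB8, at 0 with DMSO in WT and F2, the response difference of F2 and WT is the same quantity as their difference under tazemetostat, -1.24 (SE 0.40, adjusted p = 0.0296) and -1.01 (SE 0.26, adjusted p = 0.00781). Neither held with edgeR (adjusted p = 1 for both) or DESeq2 (0.585 and 0.656), nor without a filter beyond 1 read (0.0595 and 0.0766). With every library scaled to the same total ITGA2 had an adjusted p of 0.0539 and ITGB8 a difference of -0.86, ITGA2 missed the threshold with a pseudocount of 0.5 (0.119) and ITGB8 the limit with a pseudocount of 4 (-0.99). ITGA2 also missed the threshold (0.0572 to 0.0654), and ITGB8 the limit (-0.93 to -0.99), without WT tazemetostat replicate 1 or 3 or F2 tazemetostat replicate 1 or 2. The ITGA2 difference of E1 and F2 was 2.00 with limma (SE 0.40, adjusted p = 0.0019), -0.10 with edgeR (adjusted p = 0.703) and 0.86 with DESeq2 (adjusted p = 0.818), with 2 reads in all in the controls of both lines. The cause of the opposite sign was not tested. ITGA11 responded less in E1 than in WT (-2.17, SE 0.60), which was lost with edgeR (adjusted p = 0.439), DESeq2 (0.395) and a pseudocount of 0.5 (0.0826).

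ITGA4 had a response difference of 1.15 for E1 minus WT (SE 0.37, adjusted p = 0.0213), with few reads in E1 before and after. It fell short with only these groups in the fit (adjusted p = 0.0571) and without WT DMSO replicate 2, WT tazemetostat replicate 3, E1 DMSO replicate 1 or E1 tazemetostat replicate 1 (adjusted p = 0.0557 to 0.0647). ITGB7 had 1.92 for F2 minus WT (SE 0.62, adjusted p = 0.0279), which was lost without a filter beyond 1 read (0.0649) and without WT DMSO replicate 3, WT tazemetostat replicate 2 or any 1 of F2 DMSO replicates 1 and 2 and F2 tazemetostat replicates 2 and 3 (0.0515 to 0.0791). ITGAM just missed the threshold for F2 minus WT, with 1.33 (SE 0.49, adjusted p = 0.0507). It passed with edgeR (0.0461), with a pseudocount of 4 (0.0342), scaled to the same total (0.0294), with the replicate block (0.046) and without WT DMSO replicate 3, WT tazemetostat replicate 1 or F2 DMSO replicate 1 (0.00441 to 0.0455).

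Genes around the integrins and laminins were examined as 4 lists chosen for their function, with earlier results known. As with the subunits, some genes were tested only through their treated values: 10 of 26 basement membrane partners, 10 of 29 ligands, 3 of 32 adaptors and 4 of 21 membrane proteins had a mean under 10 over the DMSO libraries, so these counts and medians lean upward and support nothing by themselves. Over all tested genes 14.5% were higher and 6.77% lower in WT, 11.3% and 3.78% in E1, and 13.3% and 3.71% in F2. Of 26 tested basement membrane partners, 18 rose and 1 fell in WT with tazemetostat, and 16 rose and 0 fell in each clone. The median log2 change of that list was 2.02, 2.23 and 2.06. COL4A1, COL4A5 and COL4A6, chains of basement membrane collagen, were at or near 0 with DMSO and held 435.5 ± 40.4, 953.5 ± 35.4 and 272 ± 5.48 normalized counts in treated WT (SD, n = 3), and all 3 rose in every line. Of 29 tested ligands of integrins, 21 rose and 2 fell in WT, 17 and 1 in E1, and 18 and 3 in F2. FN1, fibronectin, rose from 3.44 ± 2.91 to 10430 ± 611 in WT, from 6.01 ± 1.64 to 4897 ± 461 in E1 and from 2.58 ± 1.37 to 13390 ± 419 in F2. POSTN, periostin, and SPP1, osteopontin, both ligands of ITGAV integrins, held at most 3 reads in any DMSO library and 6018 ± 579 and 6646 ± 1151 in treated WT.

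Of 32 tested adaptors, which tie integrin tails to actin and to signalling, 10 rose and 2 fell in WT, 6 and 1 in E1, and 8 and 2 in F2, with median log2 changes of 0.50, 0.24 and 0.34. In E1 that is 18.8% higher and 3.12% lower, beside 11.3% and 3.78% over all tested genes. TNS1, a tensin that binds beta tails, went from at most 2 reads in a DMSO library to 960 ± 5.66 in treated WT, 574 ± 56.6 in E1 and 941 ± 38.9 in F2. KANK1 rose by 2.81, 4.04 and 3.52, and ZYX, zyxin of focal adhesions, by 1.95, 1.29 and 1.89. Of 21 tested membrane proteins that associate with integrins, 9 rose and 0 fell in WT, 5 and 1 in E1, and 8 and 1 in F2. CAV1, caveolin, held 0 reads in all DMSO libraries and 1142 ± 72.6, 2094 ± 66.0 and 1245 ± 38.9 in treated WT, E1 and F2. NRP2 and CD47, the integrin-associated protein, held at most 3 reads in any DMSO library and means of 2433 and 2000 in treated WT.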

How the data were processed

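Poly(A) RNA was sequenced as stranded paired-end libraries, per the labels' protocols. The deposited values, for 55765 gene symbols in 18 libraries, are a signal: each gene's reads were scaled by the library's size factor. Trim Galore 0.4.4, STAR 2.6.0a, HTSeq, DESeq2 and hg19 are named in the submitters' processing notes, and the annotation and the strand setting are not given in the sources used here. Values times their library's size factor were whole reads (within 0.0001) for 100% of values, with factors of 0.812 to 1.145, and these reads served for depth, floors and edgeR and DESeq2 as alternatives. The factor of F2 tazemetostat replicate 2, 0.9908, was recovered in the same way. Floors (3 reads per library) and 95% intervals cover counting error only, as there were no molecular identifiers.

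Tests used limma 3.58.1 (lmFit, eBayes with trend) in R 4.3.3 on log2(value + 1), over 16154 genes with a mean of at least 10, in 1 fit of 6 group means with 11 contrasts and no replicate block. The scale understates changes of low genes. A gene was called at a Benjamini-Hochberg adjusted p below 0.05 if its log2 change reached 1 in size. Alternatives were edgeR 4.0.16, DESeq2 1.42.0, other pseudocounts (0.5 and 4), filters and scalings, no fold limit, only the compared groups, a replicate block and leaving out each library. The fitting was tested on simulated data. Lengths are exon unions of GENCODE v29 by symbol, and sequences are from RefSeq. All 36 subunits were accounted for, and from each of the 4 lists up to 3 genes were named, those with the largest change in WT among called genes with a mean of at least 50. Members and lists were chosen with earlier results of these data known. The labels call the replicates biological but do not say that a number pairs cultures. Deviations of same-numbered libraries correlated above 0.1 in every pair only for F2 and WT with DMSO (0.108 to 0.375), where the block changed no call of a subunit. The p-values measure the spread between these cultures.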

Additional observations from a re-analysis of the deposited data

Results flagged for a closer look

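The results here are the 15 tests in which the change with tazemetostat differed between 2 lines, as log2 response differences past limma's threshold. For E1 minus WT they were ITGA11 at -2.17, ITGA4 at 1.15 and LAMB1 at 2.75. For F2 minus WT they were ITGA1 at -1.43, ITGA2 at -1.24, ITGA9 at 2.01, ITGA10 at 1.68, ITGB6 at -1.39, ITGB7 at 1.92, ITGB8 at -1.01, LAMA3 at -1.17 and LAMB1 at 2.75. For E1 minus F2 they were ITGA2 at 2.00, ITGA9 at -1.20 and ITGA10 at -1.42. ITGA2, ITGA9, ITGA10 and LAMB1 were each called in 2 of the 3 comparisons. LAMB1 had 1 read per library in untreated E1. The values of ITGA2, ITGA4, ITGA11, ITGB7 and ITGB8 lost the call in at least 1 alternative, as given above.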

How the results depend on the processing

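Over the alternatives, 92 called results of single subunits gave 1547 values. Of these, 1476 kept direction and call, 70 kept the direction and lost the call, and 1 reversed. The reversed value was the ITGA2 response difference of E1 and F2, -0.10 with edgeR, and its cause was not tested. Among the values that kept their call, 92 came from dropping the fold limit. That setting uses the main fit, so no call could be lost there. Without the fold limit, the numbers of subunits called were 25 in WT and 21 in E1 for tazemetostat, 11 for E1 and 10 for F2 against WT with DMSO, 19 for each clone against WT with tazemetostat, 17 for E1 against F2, 11 for the response difference of E1 and WT, and 10 for that of E1 and F2. Numbers for tazemetostat in F2 and for the response difference of F2 and WT are not given here. The shares of all tested genes given above hold with the fold limit only. Whether these numbers are more than usual therefore cannot be told. With only the compared groups in the fit, E1 against WT with DMSO had 3 calls. Leaving out each library in turn gave 15 to 16, 12 to 13 and 14 to 15 calls for tazemetostat in WT, E1 and F2, and 2 to 5 and 3 to 5 for the response differences of E1 with WT and with F2, the upper value without E1 DMSO replicate 2 and F2 DMSO replicate 2. For the response difference of F2 and WT it gave 6 to 10 calls, beside 9 with all libraries. The remaining alternatives, with the fold limit kept, moved the calls for tazemetostat further. They gave 12 to 17 in WT, 10 to 15 in E1 and 11 to 17 in F2. Scaling to the same total shifted the median of all genes by -0.15 for tazemetostat in WT, by 0.15 for F2 against WT with tazemetostat and by 0.12 for the response difference of F2 and WT, and the higher share of all calls went from 68.2% to 57.7%, from 59.5% to 71.5% and from 64.5% to 75.8%. With the replicate number as a block, all 92 calls held and ITGAM was called for the response difference of F2 and WT (1.33, adjusted p = 0.046). Deviations of same-numbered libraries correlated at -0.05 to 0.22 on average in the 8 comparisons of 2 groups. Few reads limit the changes of ITGA11 (at most 3 in a DMSO library) and of LAMB1 in the clones.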
